A study of Homo sapiens with 12 samples.

Results

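The protein-protected RNA sites revealed by a double-strand-specific ribonuclease in HEK293T cells, a long-established line derived from human embryonic kidney, are described here. They were all 73899 sites of the 3 replicate lists made with that nuclease, out of 513381 sites in the 6 replicate lists of the series. Each list set a footprint library, in which cross-linked lysate was digested with RNase V1 (dsRNase) while protein was in place, against a digestion control with the same replicate number, in which SDS and proteinase K had removed protein before RNase V1 was added. Cells of all these groups were untreated apart from cross-linking with 1% formaldehyde for 10 minutes. The 3 footprint and 3 control libraries enter only through these lists, which hold positions and scores and no read counts, so the depth behind a site is unknown. The labels do not state whether replicates were separate cultures, so p-values and spreads measure only how these lists vary, which may be technical. Sites were not assigned to genes, since the annotation at hand is of another build than the lists (hg19), and for the same reason the identity of the cells was not checked against marker genes.

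RNase V1 cleaves RNA in base-paired or stacked conformation, with little preference for sequence. RNA that survives it is either unpaired or shielded, and the control without protein is what separates the second from the first. Single-strand-specific nucleases such as RNase ONE (ssRNase, the other nuclease of the series) leave the opposite background, so the nucleases see different parts of a folded RNA. Proteins that shield paired RNA include those of ribosomes, of mitochondrial ribosomes and of stable small ribonucleoproteins.

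The dsRNase lists were of similar size and held short sites. Replicate 1 had 23925 sites, replicate 2 had 28413 and replicate 3 had 21561. Their site bases came to 823446, 979087 and 798935. The median length was 33, 33 and 34 nt, and the middle 50% of sites spanned 26 to 40, 26 to 41 and 28 to 42 nt. Very short sites were common, with 11.6%, 14.5% and 7.24% of sites below 20 nt, against 2.05% to 2.39% in the 3 ssRNase lists. Replicate 3 thus had the fewest and longest sites of the dsRNase lists. Sites above 100 nt were rare, at 124, 144 and 207 sites.

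Sites of 1 list alone made up 48.6%, 52.1% and 45.1% of replicates 1, 2 and 3. A site counts as found again when a site of another dsRNase list shares 1 nt or more with it on the same strand. By this measure 51.4% ± 3.50 of the sites of a list (SD, n = 3 lists) were found in another list and 23.1% ± 2.93 in both others. Sites in all 3 lists numbered 5615, 5671 and 5560, nearly the same in each list, as they are by construction largely the same places. What differed was the remainder, and sites of 1 list alone numbered 11618 in replicate 1, 14812 in replicate 2 and 9731 in replicate 3. Sites in exactly 2 lists numbered 6692, 7930 and 6270. Replicate 2 was thus the longest list mostly through sites that the other lists did not hold. Joined over the 3 lists, the sites formed 51403 regions, of which 36161 (70.3%) came from 1 list, 9793 (19.1%) from 2 and 5449 (10.6%) from all 3. The authors' merged dsRNase list gave the same 3 numbers. Of the 5449 regions from all 3 lists, 220 held no base covered in all 3, as their sites were joined through overlaps of 2 lists. Bases covered in all 3 lists came to 169914, or 8.85% of the 1919367 bases covered in any.

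**Figure D1:**
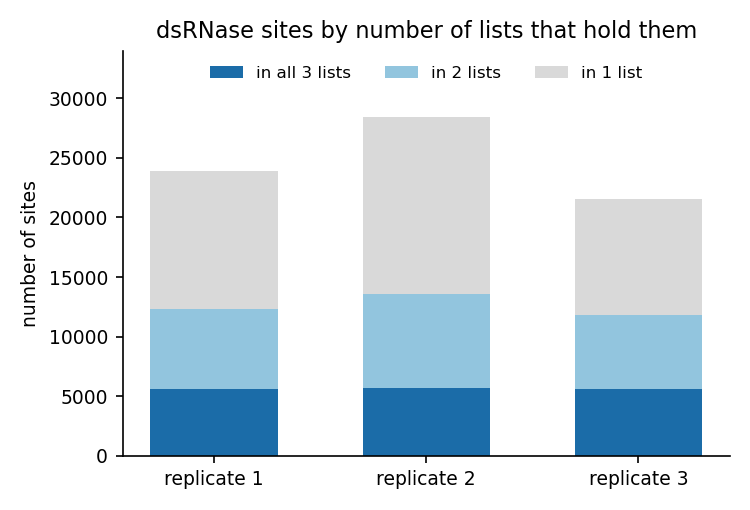
Number of sites in each dsRNase replicate list, split by whether the site was found in that list alone, in 1 other list or in both others (1 nt or more shared, same strand). The 3-list segment is alike in all bars (5560 to 5671 sites), and the bar of replicate 2 is the tallest, mostly through its 14812 sites of 1 list.

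Recurrence was bound to the strand. Only 0.973% ± 0.199 of sites (SD, n = 3 lists) overlapped a site of another dsRNase list on the opposite strand, against the 51.4% on the same strand. Between single pairs of lists the same-strand share ran from 33.5% to 43.0% and the opposite-strand share from 0.524% to 0.969%. The opposite strand holds fewer or more sites than the same strand, depending on the strand of the site, so this is a side-by-side description. Without the mitochondrial genome and contigs the opposite-strand share was 0.538%. It was 0.5715% without replicate 3, when 1 list fewer can match, and 0.607% and 0.407% when 50% of the site or of both sites had to overlap. From the plus strand, which looks onto the fuller minus strand, the opposite-strand share was 1.79%, and from the minus strand 0.684%.

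The ends of recurring sites were reproduced to a few nucleotides. For pairs of sites that overlap each other and nothing else (8692 pairs between lists 1 and 2, 7314 between 1 and 3, and 8283 between 2 and 3), the median difference of 5′ ends was 4 nt in every pair of lists. That of 3′ ends was 4, 4 and 5 nt. The 3′ end coincided exactly in 17.9%, 18.6% and 16.1% of pairs, and the 5′ end in 13.5%, 13.9% and 13.2%. The exact 3′ share was therefore above the exact 5′ share in each pair of lists. Both ends coincided in 2.62% to 3.05% of pairs, and 11.2% to 13.6% of pairs differed by more than 20 nt at a given end. The pairs of ssRNase lists gave a median of 4 nt at either end too, with exact 3′ ends in 18.0% to 18.5% and exact 5′ ends in 12.7% to 13.1%. The medians were thus the same or 1 nt apart between nucleases.

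**Figure D2:**
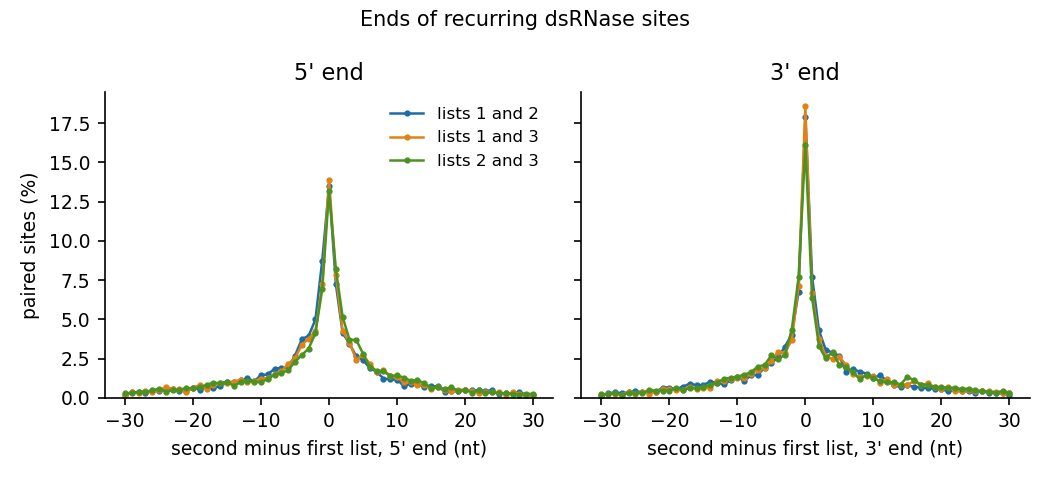
Difference of 5′ ends (left) and 3′ ends (right) between paired sites of 2 dsRNase lists, in nt along the direction of transcription (second list minus first), as percent of pairs. Lines are the 3 pairs of lists, which share lists; all peak at 0, with 13.2% to 13.9% of pairs at the 5′ end and 16.1% to 18.6% at the 3′ end.

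Sites in all 3 lists were longer than sites of 1 list, and recurrence was higher among high-scoring sites. The median length of sites in all 3 lists was 38, 39 and 40 nt, against 32 nt in each list for sites of 1 list alone, a difference of 7 ± 1 nt (SD, n = 3 lists). Sites found in exactly 1 other list had medians of 32, 33 and 34 nt, the same as sites of 1 list in replicate 1. A longer site overlaps others more easily. When the midpoint of a site had to lie in the other site, so that the site's own length does not enter, the difference was 6.33 nt. The score is a value per site given by the authors, of unstated scale, used here only for ranking within a list. Each list was split into 10 score classes of equal size. In the highest class 92.6%, 89.6% and 93.9% of sites were found in another list, and in the lowest class 26.7%, 17.8% and 34.2%. The difference was 65.8 ± 6.05 percentage points (SD, n = 3 lists). Of the 100 highest-scoring sites of each list, 100 were in both other lists in replicates 1, 2 and 3 alike. They had a median length of 99, 93.5 and 96 nt. On the contig Un_gl000220 lay 31, 35 and 29 of them, and on the mitochondrial genome 6, 8 and 7. Of all sites of a list the mitochondrial genome held 0.606%, 0.651% and 0.816%, and the contig 0.393%, 0.355% and 0.557%. Many sites of that contig had a counterpart further along it, as given under other observations, so the same layout may be counted at both places.

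**Figure D3:**
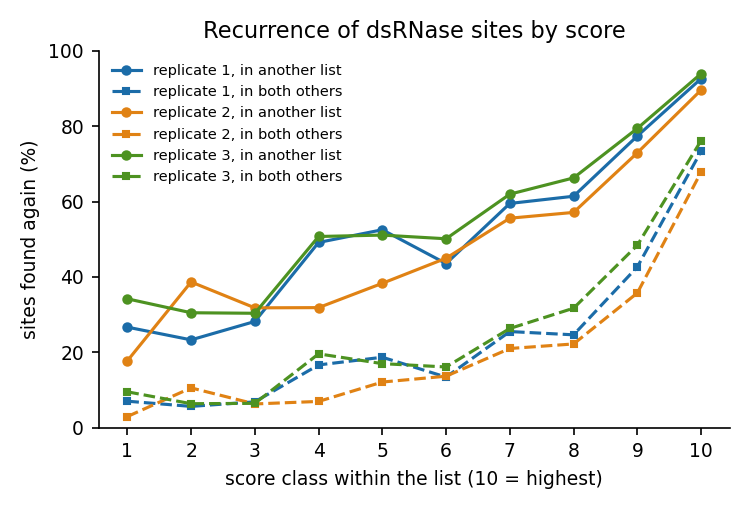
Percent of dsRNase sites found again in another list (solid) and in both other lists (dashed), by score class within each replicate list, from lowest (1) to highest (10), with ties in a fixed random order. Recurrence in another list was 17.8% to 34.2% in the lowest class and 89.6% to 93.9% in the highest; the steps between the lower classes are uneven.

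The scores moved with the strand. In replicate 1 the plus strand used 435 distinct score values and the minus strand 705, and only 2 values occurred on both. In replicates 2 and 3 the strands shared 2 and 3 values, out of 507 and 644 and of 463 and 645. A few low values held many sites. On the minus strand the commonest value was that of 33.8%, 29.8% and 34.1% of sites in replicates 1, 2 and 3, and on the plus strand of 22.0%, 30.5% and 20.7%. Ranks across strands therefore set different scales against each other. The lowest score class was 98.5% minus strand in replicate 1, 0.106% in replicate 2 and 93.5% in replicate 3. With score classes taken within each strand, a choice made after this was seen, the difference in recurrence between highest and lowest class was 57.3 percentage points in place of 65.8. Sites at the commonest value of their strand were found again less often than sites above it on each strand of each list, as in 23.0% against 63.3% on the minus strand of replicate 1.

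The minus strand held most dsRNase sites, and the strands differed in how well the lists matched. Minus-strand sites numbered 18767, 17971 and 16574, and plus-strand sites 5158, 10442 and 4987. The lists were close on the minus strand, whereas replicate 2 held about as many plus-strand sites as the other lists together. Among sites of all 3 lists the minus strand took 76.4%, 76.5% and 76.4%. Among sites of 1 list alone it took 81.1% and 78.7% in replicates 1 and 3 and 55.2% in replicate 2, where 6637 of 14812 sites lay on the plus strand. The difference between sites of 3 lists and of 1 list was -4.74, 21.3 and -2.36 percentage points (mean 4.72 ± 14.4, SD, n = 3 lists). It changed sign between lists and was smaller than their spread. Of the plus-strand sites of replicate 2, 36.4% were found in another list, against 57.5% and 58.5% in replicates 1 and 3. On the minus strand the shares were 49.8%, 54.5% and 53.8%. The commonest score values differ between strands and lists, as given above. Without the sites at these values the minus-strand share of a list was 75.5%, 63.5% and 73.4%, in place of 78.4%, 63.2% and 76.9%. Whether a threshold that differs between strands has a part in the excess of minus-strand sites was not tested.

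**Figure D4:**
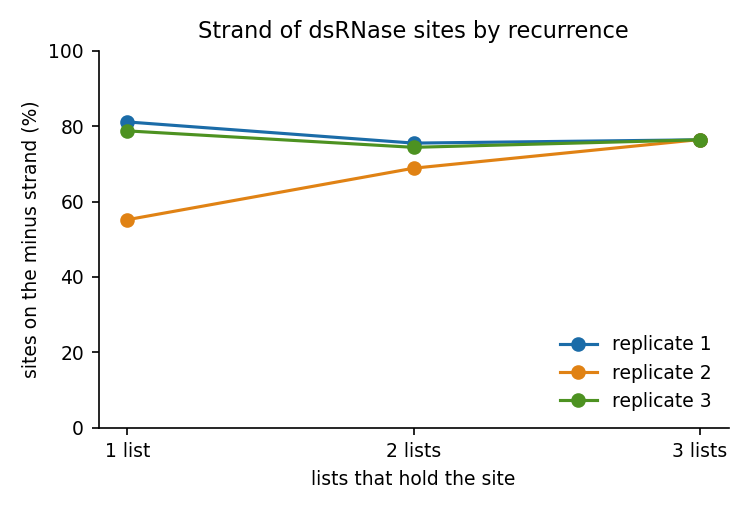
Percent of dsRNase sites on the minus strand, by the number of lists that hold the site, for each replicate list. The lists meet at 76.4% to 76.5% for sites in 3 lists, and replicate 2 lies apart at 55.2% for sites in 1 list.

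Sites of 1 dsRNase list were mostly found with the other nuclease. Of the dsRNase sites held by 1 list alone, 67.6%, 71.6% and 71.9% overlapped a site of at least 1 ssRNase list on the same strand. Of those in all 3 dsRNase lists 79.9%, 80.6% and 80.9% did. The difference was 10.1 ± 1.92 percentage points (SD, n = 3 lists). On the opposite strand 2.64% to 9.07% of sites of 1 list overlapped an ssRNase site. The share with a site in all 3 ssRNase lists was 18.1% ± 3.21 for sites of 1 dsRNase list and 31.1% ± 0.414 for sites of 3 (SD, n = 3 lists each). Presence in ssRNase lists was thus higher for sites of 3 dsRNase lists than of 1, although part of the sites of all 3 dsRNase lists overlapped no ssRNase site. Sites of exactly 2 lists, of which 79.8%, 79.2% and 79.8% overlapped any ssRNase list, were close to sites of 3 by that measure. By overlap with all 3 ssRNase lists they were lower, at 25.2%, 24.8% and 26.8% against 30.7%, 31.1% and 31.6% for sites of 3. Sites of 3 lists were also longer, and a longer site overlaps others more easily. The size of the rise from 1 list to 3 depended on the strand and on the overlap asked for. On the plus strand alone it was 2.68 ± 3.27 percentage points (SD, n = 3 lists), smaller than the spread between lists. With an overlap of 50% of the site it was 4.94 ± 1.73 and with 50% of both sites 16.3 ± 1.67.

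Sites were clustered along transcripts in part of the lists. The median gap between neighbouring sites of a list on a strand was 4683, 4026 and 4290 nt, while 12.5%, 14.4% and 14.4% of gaps were at most 100 nt. Chaining sites at gaps of at most 100 nt left 18855, 21445 and 16387 sites on their own. It joined the other sites, 21.2%, 24.5% and 24.0% of each list, into 2090, 2899 and 2074 clusters. Clusters of 5 sites or more were few, at 86, 107 and 98. In 84, 103 and 96 of these both other lists had at least 1 site within the span. Taken one by one, 42.9%, 35.2% and 41.3% of sites with a neighbour within 100 nt were in both other lists. At least 1 match in a span of 5 sites or more is easily met, so these counts do not measure how well clusters recur. Sites with a neighbour within 100 nt recurred more often than isolated ones, at 70.5% ± 3.32 against 45.7% ± 3.93 (SD, n = 3 lists each). Their median lengths were 32.7 and 33.7 nt on average, and their median scores were 156.7, 154.9 and 248.7 against 128.5, 114.8 and 182.9 in replicates 1, 2 and 3. Where sites lie densely, 1 shared nt is also met more easily. The parts of score and of density in this difference in recurrence were not tested.

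The largest clusters fell on few loci. Replicate 3 had, on chromosome X (minus strand, 73044094 to 73047441), a cluster of 34 sites with 2241 site bases, and replicates 1 and 2 had 42 and 32 sites in the same span, with 1533 and 1051 bases. The largest cluster of replicate 1, of 20 sites from 73044056 to 73045320, overlapped it. On the minus strand of chromosome 11 a cluster from 10529436 to 10531283 held 16, 17 and 17 sites and 1533, 1555 and 1523 bases in replicates 1, 2 and 3. About 84.1% of that span was covered in replicate 2. This locus was alike in all lists in number of sites and in bases. A cluster on the minus strand of chromosome 5 from 79945843 to 79947139 had 13, 13 and 12 sites and 1093, 1058 and 1021 bases. On the minus strand of chromosome 2, from 148689185 to 148690016, 13, 12 and 10 sites were listed, and on that of chromosome 17, from 79477035 to 79477879, 9, 11 and 8. Of the 15 largest clusters, 5 in each list, 14 lay on the minus strand, and the other was mitochondrial (plus strand, 602 to 3418), with 92.4% of its 2817 nt covered in replicate 2. The 15 are not separate loci, as several recur between lists. Of all clusters of 5 sites or more, 74 of 86, 69 of 107 and 72 of 98 lay on the minus strand. That strand held 78.4%, 63.2% and 76.9% of all sites.

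To set clustering beside the other nuclease, every list was reduced to its 21561 highest-scoring sites, the number in the shortest list, since closeness rises with the number of sites. This kept 90.1%, 75.9% and 100% of the dsRNase lists but 10.3%, 37.5% and 12.5% of the ssRNase lists. A neighbour within 100 nt was then found for 21.0%, 22.4% and 24.0% of dsRNase sites and 15.9%, 16.6% and 14.1% of ssRNase sites. Each dsRNase value exceeded each ssRNase value, by 6.91 percentage points on average (two-sided exact permutation p = 0.1, Benjamini-Hochberg adjusted over 3 comparisons 0.15). With 3 lists a nuclease no exact permutation p can fall below 0.1, so this test cannot reach 0.05. With sites of at least 20 nt, which leaves out more of the dsRNase lists, the difference was 3.17 percentage points (exact permutation p = 0.1). With all sites of every list the order of the means turned, at 23.2% ± 1.79 for dsRNase and 28.4% ± 5.83 for ssRNase (SD, n = 3 lists each; two-sided exact permutation p = 0.3).

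Protected bases were concentrated on few windows. At equal list length the densest 1% of occupied stranded windows of 10000 bp held 11.2%, 11.03% and 12.6% of site bases with dsRNase and 11.3%, 8.83% and 9.15% with ssRNase. These ranges overlapped (two-sided exact permutation p = 0.3, adjusted 0.3), and the difference of 1.83 percentage points was 1.204 without dsRNase replicate 3. With all sites of every list they did not overlap, at 10.95%, 10.96% and 12.6% with dsRNase and 10.3%, 9.21% and 9.68% with ssRNase (exact permutation p = 0.1). The p was also 0.1 in the exact test with windows of 5000 bp and without ssRNase replicate 1. Over the full dsRNase lists 21819 windows were occupied, and 5497 of them (25.2%) in all 3 lists. Those windows held 64.8%, 61.3% and 71.2% of the site bases of replicates 1, 2 and 3. Within them the lists ranked the windows alike to a moderate degree, with Spearman's rho across windows of 0.571, 0.575 and 0.580 for the 3 pairs of lists. Windows are not independent replicates, and these values are a description. Among windows with a site in either list of a pair, rho was 0.156 to 0.177.

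Sites facing each other across strands were rare with dsRNase. At equal list length 0.543%, 0.654% and 0.979% of dsRNase sites overlapped a site of the same list on the opposite strand, against 8.60%, 10.8% and 9.25% of ssRNase sites. The ranges did not overlap, and the mean was 13.2 times higher with ssRNase (difference -8.82 percentage points, dsRNase minus ssRNase; two-sided exact permutation p = 0.1, adjusted 0.15). Over full lists the median ssRNase site was 43, 44 and 42 nt long, against 33, 33 and 34 nt with dsRNase, and a longer site overlaps others more easily. The minus strand held 56.6%, 58.8% and 58.1% of ssRNase sites, against 78.4%, 63.2% and 76.9% with dsRNase. A list lying mostly on 1 strand leaves fewer chances to face. The part of length and strand in the difference was not tested. In the full lists there were 122, 196 and 211 facing dsRNase sites. The mitochondrial genome, which is transcribed along its whole length on both strands, held 66, 103 and 91 of them, although it held 145, 185 and 176 sites in all. Elsewhere 56, 93 and 120 facing sites remained, or 0.234%, 0.327% and 0.557% of a list.

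**Figure D5:**
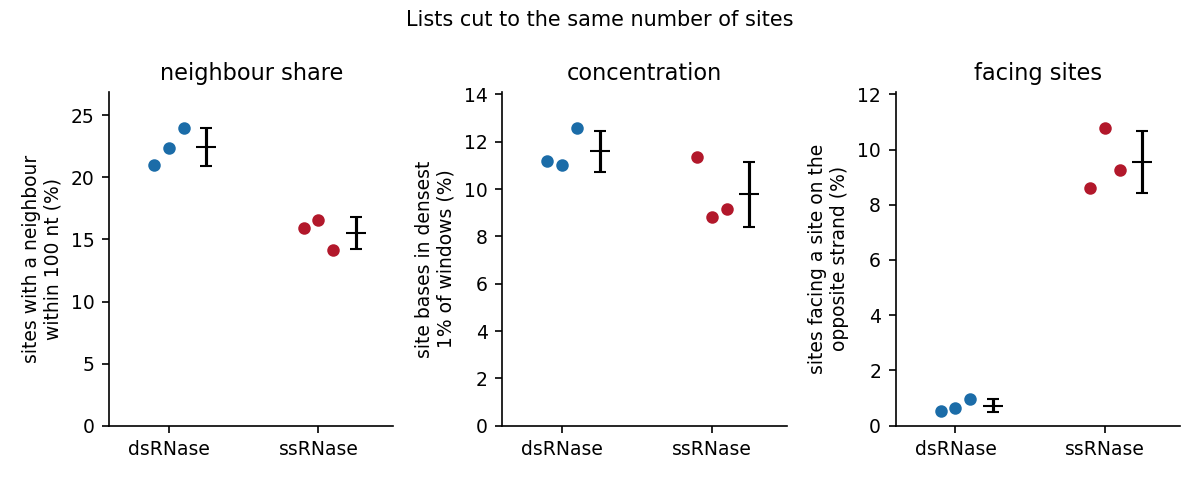
Share of sites with a neighbour within 100 nt (left), share of site bases in the densest 1% of windows (middle) and share of sites facing a site on the opposite strand (right), in percent, with every list reduced to its 21561 highest-scoring sites. Points are replicates 1, 2 and 3 from left to right and bars the mean ± SD of 3 lists; the dsRNase points lie above the ssRNase points at left and below them at right, and overlap them in the middle.

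Mitochondrial sites recurred more often than those of the numbered chromosomes in each list. The mitochondrial genome encodes 2 ribosomal RNAs and most of its messenger and transfer RNAs on 1 strand, while the other strand carries ND6 and a few transfer RNAs. Of mitochondrial sites 62.1%, 47.0% and 51.1% were in all 3 dsRNase lists, against 22.6%, 19.3% and 25.0% of sites on the numbered chromosomes. Mitochondrial sites also lay closer together. A neighbour within 100 nt was found for 78.6%, 85.9% and 84.1% of them, against 19.9%, 23.4% and 22.4% on the numbered chromosomes. Where sites lie densely, 1 shared nt is met more easily, and the part of density in this difference was not tested. The mitochondrial share of sites was 1.59% ± 0.0450 among sites of 3 lists and 0.274% ± 0.0893 among sites of 1 list, a difference of 1.31 ± 0.107 percentage points (SD, n = 3 lists). It was 3.15 on the plus strand, 0.752 on the minus strand and 0.861 when 50% of both sites had to overlap. On the plus strand the lists held 64, 95 and 80 sites and 5031, 7138 and 6294 bases, of which 3943 were covered in all 3. On the minus strand they held 81, 90 and 96 sites and 3202, 3984 and 3657 bases, of which 1353 were covered in all 3. Plus-strand sites were longer, with a median of 51, 49 and 48 nt against 34, 36 and 37 nt.

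The longest protected stretches of the lists lay at the start of that plus strand. The 5 longest dsRNase sites were all there, from 364 to 1172 nt. They are not separate loci, as sites of different lists overlap. Those from 632 to 1803, 650 to 1350 and 651 to 1077 overlap each other, as do those from 1954 to 2478 and 1954 to 2317. The longest, in replicate 2 from 632 to 1803, was covered over 1108 and 1136 of its 1172 nt by 5 and 3 shorter sites of replicates 1 and 3. Each site was put in the 1000 bp bin of its midpoint. The bins up to position 3000 held 2145, 2208 and 2254 plus-strand bases, and no minus-strand sites lay in the bins from 1001 to 3000. They made up 42.6%, 30.9% and 35.8% of the plus-strand bases of a list. Stretches common to all 3 lists were binned by their own midpoints, so their share in these bins, 54.9%, cannot be set beside those of whole sites. The 3 bins from 10001 to 13000 held 111, 355 and 185, then 211, 522 and 367, then 101, 309 and 197 plus-strand bases. Replicate 2 was highest and replicate 1 lowest in each of them. By the mean over lists the minus strand was fullest from 11001 to 13000, with 433, 481 and 434 bases in the first of these bins and 386, 523 and 445 in the second. The bin from 9001 to 10000 held 320, 366 and 441, and the bases common to all 3 lists were most in that from 13001 to 14000, at 260.

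Of the 10 regions with the most bases covered in all 3 lists, 4 were on the mitochondrial plus strand. The first spanned 632 to 1925 and was covered over 1230, 1280 and 1254 of 1294 nt, with 1199 nt common to all 3 lists. In the ssRNase lists 291, 139 and 161 nt of it were covered. The stretch from 1954 to 2482 followed, with 527, 519 and 525 nt covered and 513 nt in common, and the ssRNase lists covered 313, 224 and 192 nt of it. From 2625 to 2932 the dsRNase lists covered 302, 296 and 302 nt and the ssRNase lists 65, 41 and 59. From 2947 to 3233 the dsRNase lists covered 280, 287 and 280 nt and the ssRNase lists no base. The other 6 regions lay on minus strands of numbered chromosomes. The one on chromosome 5 from 79946317 to 79946866 had 546, 524 and 520 nt covered and 497 in common, with 243, 253 and 238 nt covered by ssRNase sites. On chromosome 1 from 149812317 to 149812762, 397, 382 and 409 nt were covered with dsRNase and 383, 206 and 225 with ssRNase. On chromosome 9 from 35657744 to 35658018, 273, 263 and 268 of 275 nt were covered with dsRNase and 106, 106 and 133 with ssRNase. On chromosome 13 a site from 110076474 to 110076690 had the same ends in all 3 lists, 217 nt long, while the ssRNase lists covered 35, 0 and 0 nt of it. The regions on chromosome 11 (10530377 to 10530592) and chromosome 17 (33478111 to 33478365) had 211 and 209 nt in common. The ssRNase lists covered 91, 71 and 70 nt of the first and 162, 148 and 131 nt of the second. Coverage by a dsRNase list was at least 82.7% of the span in each of the 10 regions. The regions were chosen for bases covered in all 3 dsRNase lists, so this high coverage follows largely from the choice. The ssRNase lists had no part in the choice, so these regions give no even comparison of the nucleases.

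The 10 windows with the largest share of site bases lay on 5 chromosomes or contigs. Shares are bases per 1000000 site bases of a list, and bases are given as such. The window from 1 to 10000 on the mitochondrial plus strand led, with 4864, 5275 and 5899 (mean 5346 ± 521, SD, n = 3 lists). The plus strand of Un_gl000220, an unplaced contig that carries ribosomal RNA gene sequence, held 2910, 2892 and 2868 bases from 110001 to 120000 and 2508, 2433 and 2643 from 150001 to 160000. Most sites of the first of these had a counterpart 43972 bp further on, as given under other observations, so the 2 windows may hold counterparts of the same sites. On chromosome 5 the minus-strand window from 79940001 to 79950000 held 1518, 1520 and 1521 bases in 20, 21 and 20 sites. The bases in these last 3 windows were close between lists. The mitochondrial minus strand from 10001 on held 2056, 2506 and 2146 bases in 53, 55 and 57 sites. Replicate 3 held the most bases in 2 of the 3 chromosome X windows and in both plus-strand windows of chromosome 11.

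In these 2 chromosome X windows the lists differed more in site length than in number of sites. From 73040001 to 73050000 on the minus strand the lists held 79, 78 and 77 sites but 2907, 2432 and 4596 bases, and the median site was 27, 26.5 and 54 nt long. From 73060001 to 73070000 there were 74, 68 and 79 sites with 1985, 1839 and 3632 bases and a median site of 24.5, 23.5 and 37 nt. Between these windows, from 73050001 to 73060000, the lists held 2043, 1913 and 1994 bases in 57, 52 and 48 sites, with a median site of 35, 35 and 36 nt. The 2 plus-strand windows of chromosome 11 were fuller in replicates 2 and 3 than in replicate 1. From 65190001 to 65200000 they held 36, 55 and 59 sites with 1036, 1821 and 2513 bases, and from 65200001 to 65210000 there were 38, 59 and 59 sites with 1255, 2304 and 2529 bases. Of their sites 16, 16 and 15 in the first and 17, 18 and 19 in the second were in all 3 lists. In the leading mitochondrial window 34, 32 and 34 of 40, 53 and 51 sites were.

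Of the chromosome classes compared, Un_gl000220 had the highest share of sites in all 3 lists. In replicate 3 its share found in another list, 78.3%, was below the mitochondrial 81.3%. In all 3 lists were 80.9%, 79.2% and 66.7% of its 94, 101 and 120 sites. Most of its plus-strand sites from 110001 to 120000 had a counterpart 43972 bp further on, as given under other observations. Such sites enter these counts at both places. Sites of this contig also lay close together, with a neighbour within 100 nt for 87.2%, 79.2% and 85.0%. The part of either in these shares was not tested. On chromosome X the shares were 30.95%, 26.0% and 33.2% of 1050, 1273 and 975 sites. A small contig placed on chromosome 7 (gl000195) had 21, 28 and 26 sites, of which 5, 5 and 5 were in all 3 lists. Chromosome 1 held the largest number of sites, at 10.2% ± 0.122 of a list (SD, n = 3 lists), followed by chromosomes 11, 17 and 5 at 6.67%, 6.65% and 6.64%.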

How the data were processed

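Per the labels' protocols, HEK293T cells were cross-linked with 1% formaldehyde, lysed and digested with RNase V1 before or after protein was removed, RNA was heated to 65 degrees for 2 hours to undo cross-links, and a duplex-specific nuclease evened out the libraries. The submitters' processing notes name cutadapt 0.9.5, TopHat2 2.0.9 and the genome build hg19. The names of the deposited lists give CSAR and an FDR of 5%. Each site carries a score that the authors deposited without stating its scale. Read filters, multiply matching reads and normalisation: not given in the sources used here. Depth is unknown.

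Positions were read as 1-based and inclusive. Sites overlapped when they shared 1 nt or more of a strand, clusters were chained at gaps of at most 100 nt, and midpoints placed sites in windows. Score ties were put in a fixed random order. Values are means over 3 lists. Nucleases were compared over 6 lists by two-sided exact permutation tests at 21561 sites per list, adjusted over 3 comparisons by the Benjamini-Hochberg method. Pairing by replicate number was tried as an alternative. The named items were the 10 regions with the most bases common to all 3 lists, the 10 windows with the largest mean share, the 5 longest sites and the 5 largest clusters of each list. Members, measures and rules were chosen with earlier results of these data known. The overlap and cluster code was tested on simulated data. Gene lists written for an annotation of build hg19 were not used. Python 3.11.15, numpy 2.4.6, pandas 2.3.3 and matplotlib 3.10.9 were used.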

Additional observations from a re-analysis of the deposited data

How the results depend on the processing

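Limits: read depth is unknown, the lists carry no gene names here, and 3 against 3 lists cannot give an exact permutation p below 0.1, so these tests say nothing of stability. Alternatives with a midpoint rule, with scores ranked or taken within strands, or without the commonest scores were added after seeing the data. For every change below without a stated reason, the cause was not tested.

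The neighbour share reversed with all sites of every list, at -5.206 percentage points (dsRNase minus ssRNase) in place of 6.91, where the ssRNase lists are longer. With sites of at least 20 nt it was 3.17. It kept its direction in the other alternatives run, as did concentration and facing sites in all of theirs. With a replicate block (exact sign-flip permutation over 3 same-numbered pairs of lists, smallest p 0.25) the differences were 6.911, 1.828 and -8.823 percentage points (p = 0.25, 0.5 and 0.25), with and without the block no difference passed 0.05. Leaving out each list in turn gave 6.031 to 7.645 for the neighbour share, 1.204 to 2.61 for concentration and -9.331 to -8.203 for facing sites.

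With an overlap of 50% of the site, recurrence in another list was 45.52%, in both others 17.95% and on the opposite strand 0.6074%, the length difference 5.667 nt, the rise in ssRNase support 4.94 and the mitochondrial difference 1.194 percentage points. With 50% of both sites these were 39.97%, 14.5%, 0.4069%, 9 nt, 16.28 and 0.8608, and the mean end difference, 4.167 nt before, was 3 nt. With the midpoint rule recurrence was 46.3% in another list and 18.76% in both others. Without the commonest scores it was 56.34% and 27.73%. In the higher-scoring 50% of each list the length difference was 8.667 nt, and with sites of at least 20 nt it was 8 nt. Without the mitochondrial genome and contigs the opposite-strand share was 0.5381%. With plus-strand sites and with minus-strand sites it was 1.793% and 0.6845%, the score difference 53.86 and 57.2 percentage points, the mitochondrial difference 3.151 and 0.7523 and, on the plus strand, the rise in ssRNase support 2.682. With score classes within each strand the score difference was 57.25. With 2 dsRNase lists left, recurrence in another list fell to 36.07% to 38.25%, since 1 list fewer can match, and the opposite-strand share to 0.5715% to 0.8437%; the end difference was 4 to 4.5 nt and the score difference 63.48 to 67.65 percentage points. Recurrence in both other lists could not be computed with 2 lists.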

Other observations

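Sites on Un_gl000220 recurred at a fixed distance along the contig. These spans, and those of the next paragraph, were chosen after their values were seen. In replicates 1, 2 and 3, 32 of 36, 36 of 40 and 43 of 47 plus-strand sites lying wholly from 110001 to 120000 had a counterpart 43972 bp further on with both ends within 2 nt.

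A weaker match of this kind was seen between the mitochondrial plus strand and the plus strand of chromosome 1 from 560001 to 570000. At the offset shared by the most sites, 7 of 64, 10 of 95 and 9 of 80 mitochondrial sites had a counterpart with both ends within 2 nt, among the 15, 26 and 21 sites listed there on chromosome 1. The same search gave 0 such sites in each list for the minus strand of chromosome 5 from 79940001 to 79950000 and of chromosome 11 from 10520001 to 10540000. Site starts alone matched for 4, 5 and 4 sites on chromosome 5 and for 4, 4 and 5 on chromosome 11. The offset of these matches differed between lists. A search at 1 fixed offset misses copies that differ in length, so the 0 does not tell whether these sites are related to mitochondrial ones. Reads that map to several places were not examined, as the lists hold none.

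Of the 100 longest sites of each list, 99, 99 and 95 were in both other lists, and 93, 85 and 89 overlapped an ssRNase site on the same strand. Over all sites of a list, 23.1% on average were in both others. Taken by strand and list, 72.9% to 77.3% of all sites overlapped an ssRNase site. The 100 longest sites had a median length of 131.5, 135 and 138 nt, and a longer site meets the rule of 1 shared nt more easily. The part of length in these counts was not tested.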
